A study of Mus musculus with 31 samples.

Results

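The MYC network is a family of transcription factors that share the partner MAX, and its 10 genes (Myc, Mycn, Mycl, Max, Mxd1, Mxd3, Mxd4, Mxi1, Mnt and Mga) were followed by symbol through 3 tables of RNA sequencing counts of 55487, 56980 and 56941 genes. Each member had 1 row in each table. Of the 10 members, 8 had enough counts to be tested in the table of conditioned media, 9 in the table of 2D and 3D culture and 8 in the table of the overexpression experiment. Mycn and Mycl account for those left out, and their counts are given instead of a fold.

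MYC and MAX bind DNA together at E-boxes and raise transcription of genes for ribosome assembly, nucleotide synthesis and cell division. MXD1, MXD3, MXD4 and MXI1 compete with MYC for MAX and recruit SIN3 and histone deacetylases to the same sites, MNT does so in most proliferating cells, and MGA joins MAX to a polycomb complex. Myc is a known driver of pancreatic cancer, and Mxi1 is known to be induced by HIF-1 in cells short of oxygen.

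The cells were Panc02, a mouse pancreatic adenocarcinoma line, in 31 samples of 11 groups. In the table of 2D and 3D culture, wild-type (WT) cells and cells edited with a lentiviral CRISPR/Cas9 vector against Cxcl5 (Cxcl5-/-), a neutrophil-attracting chemokine, were grown on plastic (2D) or as spheroids in Matrigel (3D) in culture medium, with 3 samples in each of 4 groups. In the overexpression experiment all cells were 3D-cultured, and the groups were WT (n = 2), Cxcl5-/- (n = 2), Cxcl5-/- cells with a retroviral vector for mutant Hif1α (Hif1αOE Cxcl5-/-, n = 3) and Cxcl5-/- cells with such a vector for Myc (MycOE Cxcl5-/-, n = 3). In the experiment with conditioned media WT spheroids in Matrigel were kept in control medium (Ctrl), in medium conditioned by unstimulated bone marrow macrophages (M0-CM) or in medium conditioned by macrophages stimulated with IFNγ and LPS (M1-CM), with 3 samples each. By the paper's methods, the media of this experiment held less serum than the medium of the other spheroids. Whether the edited cells were 1 clone, and from which species the Myc coding sequence in the vector came, are not given in the sources used here, and a gene count does not separate vector from chromosomal Myc or Hif1α. No Cxcl5-/- group with an empty vector is among the samples. In an overexpressing line an effect of the inserted gene therefore cannot be told apart from a trait of that transduced line. The labels of the overexpression samples give cell line names that run on from sample to sample, and the name in the paper was followed. The methods speak of biological replicates for the experiments in general, but the labels do not tie the sequenced samples to separate cultures, so the p-values measure the spread between these samples, which may be technical.

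Total counts per sample ranged from 41542533 to 78498230. Levels are CPM, counts relative to the library total scaled by TMM. Each change is a log2 fold change with its standard error (SE), and it was called at an adjusted p under 0.05 in edgeR's quasi-likelihood test over all genes of a table. Cxcl5 transcripts were measured at 45.6, 47.3 and 49.1 CPM in 2D WT and at 37.4, 32.7 and 32.8 CPM in 2D Cxcl5-/-. In 3D they were at 28.5, 24.5 and 28.0 CPM in WT and at 65.5, 40.9 and 45.4 CPM under the label 3D Cxcl5-/-, so that the transcript was higher in the libraries labelled as knockout (log2 0.91, SE 0.14, adjusted p = 0.000173). Their label is kept below as a label only. The paper checked its knockout by immunoblot for CXCL5 protein, also in 3D-cultured cells, and a transcript count does not measure the protein. In the overexpression experiment Cxcl5 was at 64.2 and 67.7 CPM in WT and at 36.6 and 40.2 CPM in Cxcl5-/-. The keratins Krt8 and Krt18 were present in every group, at group means of 147 to 569 CPM for Krt8, while the epithelial genes Epcam and Cdh1 stayed at or under 0.43 CPM in every group mean. Among the macrophage genes Adgre1 and Itgam stayed at or under 0.59 CPM and Ptprc at or under 1.73 CPM, and the sums of all 6 macrophage markers, which were higher, are given below.

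The lists of epithelial, fibroblast and macrophage markers nevertheless moved with the groups, in cultures of the Panc02 line. The 5 epithelial markers summed to 536 to 586 CPM in 2D WT, 839 to 1083 CPM in 3D WT and 187 to 219 CPM in the libraries labelled 3D Cxcl5-/-, where all 3 tested were called lower than in 3D WT (median log2 -2.57), and 3 of 4 tested were lower in Cxcl5-/- than in WT of the overexpression experiment (-2.02). The 4 fibroblast markers summed to 23.3 to 25.4 CPM in 2D WT, 71.3 to 74.0 CPM in 3D WT and 203 to 234 CPM in the libraries labelled 3D Cxcl5-/-, in which 1 was called higher and 2 lower than in 3D WT. From 2D to 3D, 3 of them were called higher in WT and 4 in Cxcl5-/-. In the overexpression experiment they summed to 19.7 to 23.4 CPM in WT, 269 CPM in Cxcl5-/-, 25.9 to 44.4 CPM in Hif1αOE Cxcl5-/- and 147 to 170 CPM in MycOE Cxcl5-/-. There 4 were called higher in Cxcl5-/- than in WT, and against Cxcl5-/- 4 were lower with Hif1αOE and 3 with MycOE. Of 4 macrophage markers tested, 3 (Ptprc, Cd68 and Lyz2) were called higher in 3D than in 2D, in WT and in Cxcl5-/- alike. The 6 markers summed to 1.90 to 2.66 CPM in 2D WT, 6.04 to 7.87 CPM in 2D Cxcl5-/-, 7.35 to 8.85 CPM in 3D WT and 14.6 to 23.9 CPM in the libraries labelled 3D Cxcl5-/-. In the overexpression experiment they summed to 14.2 to 14.4 CPM in WT, 14.8 to 15.7 CPM in Cxcl5-/-, 20.1 to 25.7 CPM in Hif1αOE Cxcl5-/- and 16.1 to 23.8 CPM in MycOE Cxcl5-/-. The shares of all genes called in the same comparisons are given with the members below. The part of these markers in the results below was not tested, and in such bulk samples fewer cells of a type and less RNA per cell cannot be told apart.

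The scaling matters for small changes, since the share of called genes that were higher moved by over 10 percentage points with library totals in place of TMM in 3 comparisons of 2D and 3D culture. It went from 50.2% to 34.7% for 3D WT against 2D WT, from 43.9% to 75.8% for 3D Cxcl5-/- against 3D WT and from 40.9% to 77.1% for the interaction of genotype and culture. The median log2 fold change of all genes moved from -0.04 to 0.35 for 3D Cxcl5-/- against 3D WT, and all changes are given relative to the TMM scaling. Against Cxcl5-/-, the share went from 57.8% to 43.6% for Hif1αOE Cxcl5-/- and from 54.6% to 36.3% for MycOE Cxcl5-/-.

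Mxd4 and Mnt, which rose together in Cxcl5-/- cells of the overexpression experiment, share an E-box in the bases before their start sites. The reference promoters of RefSeq (GRCm38.p6, 250 bases before to 50 after a start site) held 11 entries for 9 of the 10 members, and Myc is the member without one. An E-box, CACGTG, which reads the same on both strands, occurred in the promoters of 3 members, Max, Mxd4 and Mnt, and in 7.15% of all 32851 promoters of that length. The 250 bases before the start sites of Mxd4 (chr5:34187711-34187960, minus strand) and Mnt (chr11:74830674-74830923, plus strand) are shown with the E-box in capitals, 5′ to 3′, because both genes were called higher in that comparison. Between MycOE and Hif1αOE they were called in opposite directions, and Max, which has an E-box too, was not called between Cxcl5-/- and WT.
Mxd4: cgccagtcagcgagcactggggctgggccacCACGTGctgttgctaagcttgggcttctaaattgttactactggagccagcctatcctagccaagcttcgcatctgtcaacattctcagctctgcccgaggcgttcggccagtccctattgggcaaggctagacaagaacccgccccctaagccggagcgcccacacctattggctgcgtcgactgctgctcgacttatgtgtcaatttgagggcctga
Mnt: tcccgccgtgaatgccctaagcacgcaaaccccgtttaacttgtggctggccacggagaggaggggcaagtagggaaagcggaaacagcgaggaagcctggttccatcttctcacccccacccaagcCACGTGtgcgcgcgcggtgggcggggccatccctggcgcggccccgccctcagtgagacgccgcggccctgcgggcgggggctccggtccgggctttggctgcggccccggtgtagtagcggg

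The letters ACGTG, a form of the core of the sites that HIF-1 binds, were searched on both strands and lie within every E-box. GCGTG, another form of that core, was not searched. They were found in 19.6% of all promoters, and outside an E-box in those of Mxi1 (at its listed start sites 2 and 3) and Mga. The surrounding bases are shown for these genes with the core in capitals, since Mxi1 changed most of the members from 2D to 3D in WT cells and Mga changed most with mutant Hif1α. They lie at chr19:53329335-53329363 and chr19:53329658-53329686 on the plus strand for Mxi1 and at chr2:119897208-119897227 on the plus strand for Mga, up to the start site.
Mxi1, start site 2: cctcggcacccgACGTGcactggcggggg
Mxi1, start site 3: tgcggatgatcaACGTGcagcgcctgctg
Mga: gcgtgcgcagtgACGTGgac
No such letters stood in the promoters of Mxd1, Mxd3, Mycl and Mycn in these windows, and a match is a description of sequence only.

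Culture as spheroids changed nearly the whole network in WT cells. Myc (chr15:61985391-61990374 of GRCm38) was measured at 17.0, 18.7 and 19.2 CPM in 2D WT and at 34.1, 36.9 and 33.9 CPM in 3D WT. All 3D values lay above all 2D values, a 1.91-fold rise (log2 0.93, SE 0.12, adjusted p = 1.76e-05). Mxi1 (chr19:53310518-53375810), whose product represses MYC targets, was at 24.6, 25.2 and 24.9 CPM in 2D WT and at 185, 146 and 173 CPM in 3D WT. This was the largest rise of a member in 3D WT, 6.76-fold (log2 2.76, SE 0.10, adjusted p = 4.9e-10). Mxd1, a repressor that appears as cells leave the cycle in many tissues, went from 3.06, 2.58 and 3.27 CPM to 16.6, 12.3 and 16.1 CPM (log2 2.34, SE 0.15, adjusted p = 4.82e-08).

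Mxd4, another repressor of the MXD group, rose as well, from 13.8, 10.1 and 12.1 CPM in 2D WT to 25.96, 28.5 and 23.2 CPM in 3D WT (log2 1.11, SE 0.11, adjusted p = 3e-06). Mnt was higher in 3D WT by 0.77 on the log2 scale (SE 0.22, adjusted p = 0.0125), a call that was lost with library totals (0.55, adjusted p = 0.101). Mxd3, the MXD gene tied to dividing cells, fell from 23.9, 20.9 and 22.4 CPM to 16.1, 13.1 and 12.6 CPM (log2 -0.68, SE 0.15, adjusted p = 0.00175). Max, the shared partner, fell from 27.4, 24.7 and 27.6 CPM to 18.5, 18.4 and 18.7 CPM (log2 -0.52, SE 0.13, adjusted p = 0.00542), and Mga fell by 0.36 on the log2 scale (SE 0.09, adjusted p = 0.00603). Together 5 members were called higher and 3 lower of 9 tested, beside 44.3% of all genes called in that comparison, 22.2% higher and 22% lower.

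**Figure D1:**
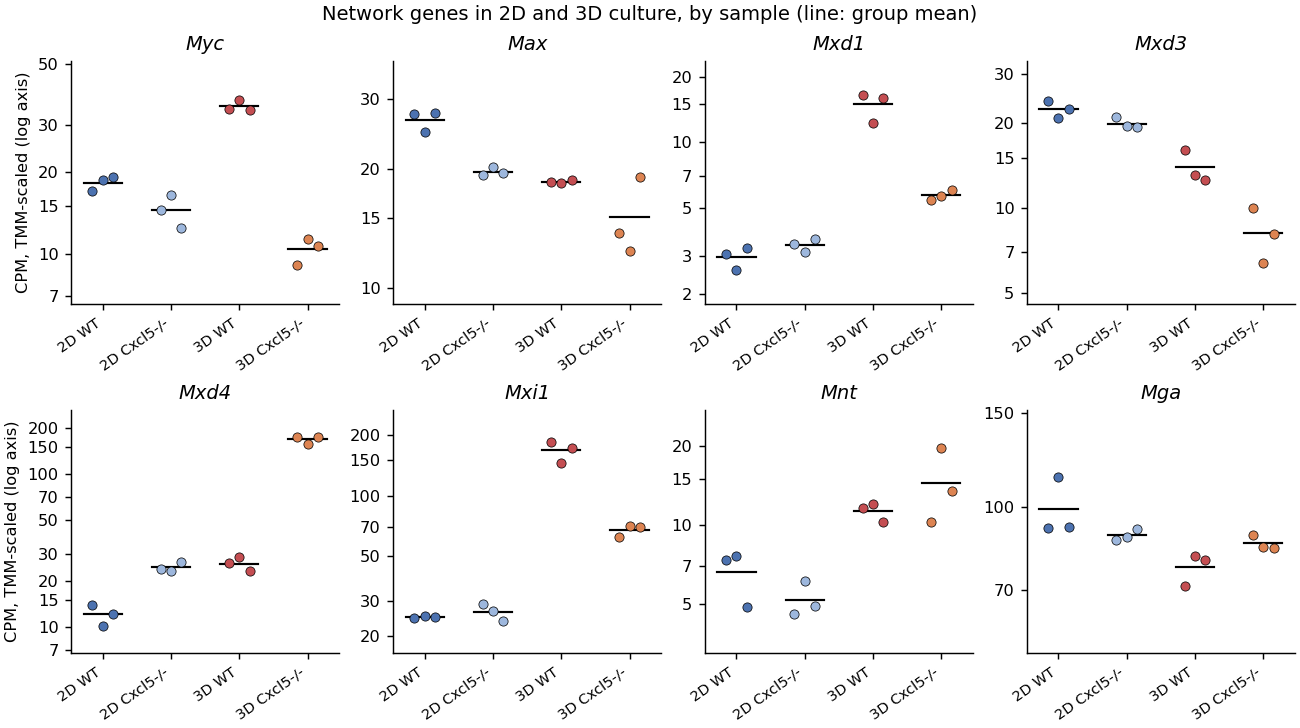
CPM of the 8 expressed members by sample (points, log axis) and the group mean (lines) in 2D and 3D WT and Cxcl5-/- cells, 3 samples in each group. Myc and Mxi1 peak in 3D WT, while Mxd4 peaks in the libraries labelled 3D Cxcl5-/-, at 156 to 174 CPM.

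In 2D culture few members differed between Cxcl5-/- and WT cells past the threshold. Mxd4 was the member called, at 24.0, 23.2 and 26.6 CPM in 2D Cxcl5-/-, all above the 2D WT values (log2 1.03, SE 0.11, adjusted p = 4.64e-05). Myc was at 14.5, 16.5 and 12.5 CPM in 2D Cxcl5-/-, below all 2D WT values, but did not pass the threshold (log2 -0.34, SE 0.12, adjusted p = 0.112). Max was at 19.2, 20.2 and 19.6 CPM, also below all 2D WT values (log2 -0.44, SE 0.13, adjusted p = 0.0665), and it passed with the DESeq2 Wald test (adjusted p = 0.0297), with at least 10 counts in every sample (adjusted p = 0.0481) and with only these groups in the fit (adjusted p = 0.00839). Mycl had 8, 8 and 18 counts in 2D WT and 0 counts in each 2D Cxcl5-/- sample, and it did not pass (adjusted p = 0.069). Thus 1 of 9 members tested was called, beside 7.03% of all genes, 3.86% higher and 3.17% lower.

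In 3D culture the same comparison gave large and opposite changes within the network. The libraries labelled 3D Cxcl5-/- had Myc at 9.12, 11.4 and 10.7 CPM, below every other group of this table and 3.37-fold below 3D WT (log2 -1.75, SE 0.12, adjusted p = 8.94e-08). Mxd4 (chr5:34173883-34187720) was at 173, 156 and 174 CPM in the same libraries, 6.48-fold above 3D WT (log2 2.70, SE 0.12, adjusted p = 2.01e-09). Mxi1 moved the other way, to 62.0, 70.8 and 70.1 CPM (log2 -1.31, SE 0.10, adjusted p = 2.32e-07). The values of these 3 genes did not overlap between the groups, nor did those of Mxd1, Mxd3 and Mga, of which Mga was not called. How many of all genes lacked overlap was not computed.

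The libraries labelled 3D Cxcl5-/- held Mxd1 at 5.43, 5.63 and 6.06 CPM, below 3D WT (log2 -1.40, SE 0.15, adjusted p = 4.95e-06). Mxd3 was at 10.04, 6.36 and 8.11 CPM and was also called lower (log2 -0.77, SE 0.15, adjusted p = 0.000888). Mnt, at 10.22, 19.6 and 13.5 CPM, overlapped with 3D WT and was not called (log2 0.36, SE 0.22, adjusted p = 0.211). It passed with library totals (0.77, adjusted p = 0.0272), and so did Mga (0.54, adjusted p = 0.0013), which was at 0.15 (SE 0.09, adjusted p = 0.207) with TMM. Max, at 13.8, 12.4 and 19.1 CPM, was not called (-0.30, SE 0.13, adjusted p = 0.0832), and its direction turned with library totals (0.09). It passed without the sample at 19.1 CPM (-0.52, adjusted p = 0.00156). Mycl, a MYC paralogue, had 11, 0 and 17 counts in 3D WT and 0 counts in each library labelled 3D Cxcl5-/-, and it was called lower (adjusted p = 0.0162). With it, 1 member was called higher and 5 lower, beside 45% of all genes, 19.7% higher and 25.3% lower.

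Taken from 2D to 3D, Cxcl5-/- cells shared some changes with WT cells and not others. Mxi1 rose by 1.36 on the log2 scale (SE 0.10, adjusted p = 8.6e-08), Mxd1 by 0.76 (SE 0.15, adjusted p = 0.000653) and Mnt by 1.47 (SE 0.23, adjusted p = 8.72e-05). Mxd4 rose by 2.77 (SE 0.12, adjusted p = 6.84e-10). Myc fell by 0.48 on the log2 scale (SE 0.12, adjusted p = 0.00319), where it rose in WT, although this call was lost with library totals (-0.32, adjusted p = 0.0836). Mxd3 fell by 1.29 (SE 0.15, adjusted p = 6.61e-06). The fall of Max (-0.38, SE 0.13, adjusted p = 0.0242) did not pass in 10 of 14 alternative settings without a fold limit, with an adjusted p of up to 0.19. Of 9 members tested, 4 were called higher and 3 lower, beside 57% of all genes, 28.7% higher and 28.2% lower.

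The interaction, the genotype effect in 3D less that in 2D, was called for 5 members, beside 27.2% of all genes. It was negative for Myc (log2 -1.41, SE 0.16, adjusted p = 4.45e-05), Mxd1 (-1.58, SE 0.21, adjusted p = 0.000122) and Mxi1 (-1.40, SE 0.14, adjusted p = 1.37e-05). For Mxd4 it was positive (1.66, SE 0.16, adjusted p = 9.01e-06). Mxd3 passed narrowly (-0.60, SE 0.21, adjusted p = 0.0463) and was lost in 11 of 19 alternative settings without a fold limit, with an adjusted p of up to 0.323.

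Set against each other per length of exon, the antagonists Mxd1, Mxd3, Mxd4, Mxi1 and Mnt summed to nearly the same level in 3D WT and in the libraries labelled 3D Cxcl5-/-, but different genes made up the sum. Levels are here TMM-scaled CPM per kilobase of exon in the GENCODE vM21 models. TMM factors were 0.820 to 0.912 in 3D WT and 1.01 to 1.22 in the libraries labelled 3D Cxcl5-/-. A lower factor raises the scaled levels, so the near equality of the sums rests on this scaling. The sums were not computed with library totals. Shares and ratios within a sample do not depend on the scaling. The sum was 16.4 ± 0.859 (SD, n = 3) in 2D WT, 16.8 ± 0.532 in 2D Cxcl5-/-, 38.1 ± 3.61 in 3D WT and 37.1 ± 0.801 in the libraries labelled 3D Cxcl5-/-. Mxi1 gave 61.8% to 66.9% of it in the 3D WT samples, and Mxd4 gave 50.5% to 55.5% in those labelled 3D Cxcl5-/-. In 2D WT the most abundant antagonist was Mxd3, at 9.47 ± 0.631 CPM per kilobase, followed by Mxi1 at 3.65 ± 0.0474.

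Within 3D WT the order of levels per kilobase was Mxi1 (24.6), Myc (12.9), Mxd3 (5.89), Max (5.16), Mga (5.04), Mxd4 (3.05), Mnt (2.44) and Mxd1 (2.12). The neighbours Mxd3 and Max, Max and Mga, and Mnt and Mxd1 lay within 1 SD of each other, as Mxd1 had an SD of 0.333. In the libraries labelled 3D Cxcl5-/- Mxd4 led at 19.8 ± 1.15, and Myc was at 3.82 ± 0.424. The ratio of Myc to the summed antagonists, a description of transcripts with no test, was 0.413 ± 0.0451 in 2D WT, 0.317 ± 0.0431 in 2D Cxcl5-/-, 0.340 ± 0.0470 in 3D WT and 0.103 ± 0.0115 in the libraries labelled 3D Cxcl5-/-. Myc and the antagonists thus rose together from 2D to 3D in WT cells, and the ratio of 3D WT overlapped that of both 2D groups.

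**Figure D2:**
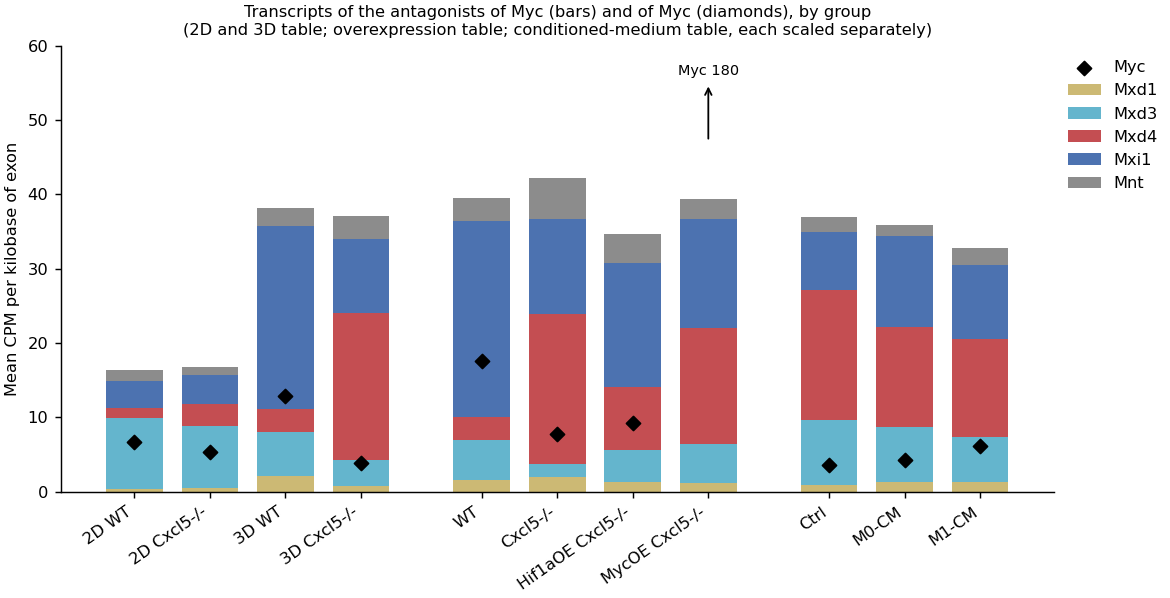
Mean CPM per kilobase of exon of the 5 antagonist genes (stacked bars) and of Myc (diamonds) in the 11 groups, with the 3 tables set apart because each was scaled on its own. In the TMM scaling the bars reach 32.8 to 42.2 in all 3D groups. By group mean, Mxi1 is the main part in 3D WT, WT of the overexpression experiment and Hif1αOE Cxcl5-/-. Mxd4 is the main part in the groups labelled 3D Cxcl5-/- and Cxcl5-/-, in MycOE Cxcl5-/-, and in Ctrl, M0-CM and M1-CM. Myc leaves the axis in MycOE Cxcl5-/- at 180.

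The overexpression experiment held another pair of 3D WT and Cxcl5-/- groups, with 2 samples each. Myc was at 49.3 and 46.1 CPM in WT and at 22.3 and 20.02 CPM in Cxcl5-/- (log2 -1.17, SE 0.15, adjusted p = 9.04e-05). Mxd4 was at 26.4 and 25.8 CPM in WT and at 162 and 180 CPM in Cxcl5-/- (2.71, SE 0.10, adjusted p = 3.73e-08). Mxi1 was at 190 and 169 CPM against 86.0 and 88.8 CPM (-1.04, SE 0.09, adjusted p = 8.3e-06). Each of the 3 genes moved in the direction it took in the libraries labelled 3D Cxcl5-/- against 3D WT. With 2 samples each, the groups did not overlap for any tested member, called or not. The share of all genes without overlap was not computed.

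Mxd3 fell from 12.5 and 12.9 CPM to 4.61 and 4.08 CPM (-1.54, SE 0.18, adjusted p = 6.16e-05). Mnt rose from 14.5 and 14.4 CPM to 24.5 and 26.6 CPM (0.82, SE 0.12, adjusted p = 0.000278). Mxd1 (0.24, SE 0.22, adjusted p = 0.381) and Max (-0.10, SE 0.12, adjusted p = 0.524) were not called, although Mxd1 had been called lower in the libraries labelled 3D Cxcl5-/-. Mga, at 71.3 and 73.9 CPM against 109 and 100.6 CPM, was just outside the threshold (0.53, SE 0.20, adjusted p = 0.0559), and it passed with only these groups in the fit (adjusted p = 0.000733). Mycn, another paralogue, had 6 and 15 counts in WT and Mycl 6 and 7, while both had 0 counts in Cxcl5-/-. These WT samples also held low counts of other genes that stayed near 0 elsewhere, such as Ptprc of leukocytes at a mean of 1.73 CPM against 0.11 CPM in Cxcl5-/-, and the part this plays in the counts of Mycn and Mycl was not tested. In all 2 members were called higher and 3 lower of 8 tested, beside 41.9% of all genes, 17.6% higher and 24.3% lower.

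**Figure D3:**
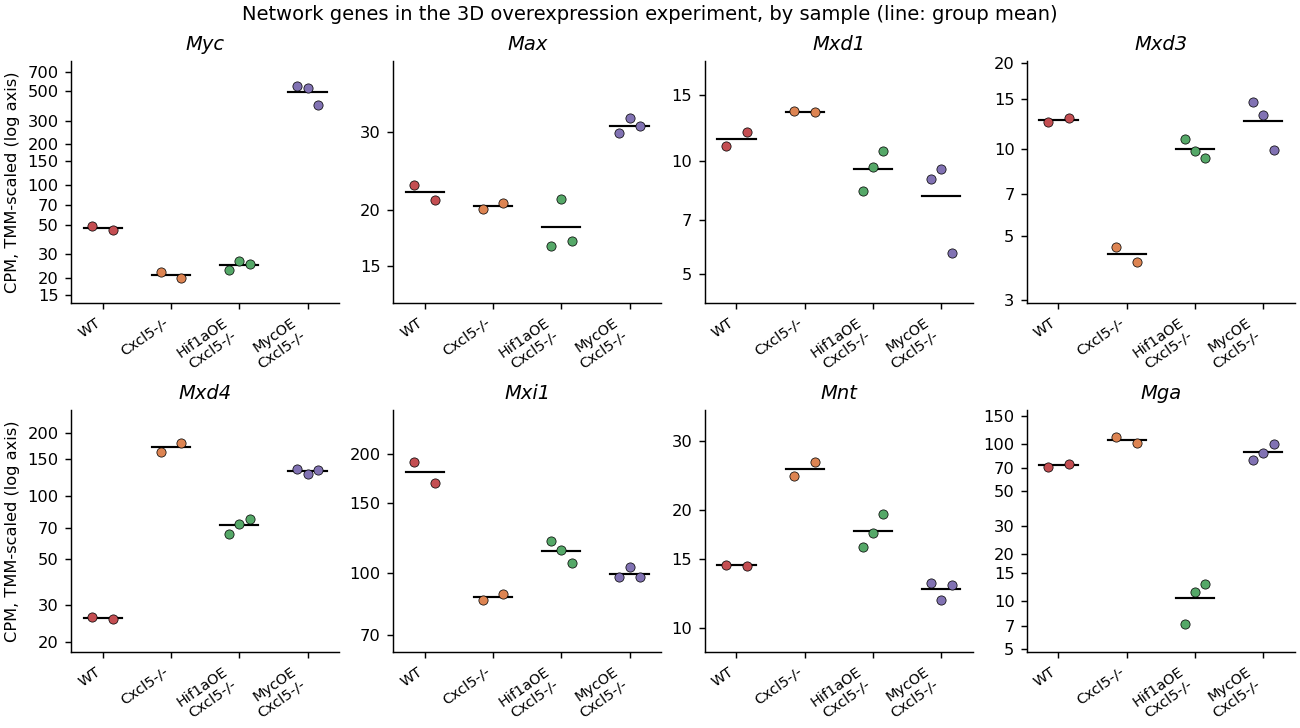
CPM of the 8 expressed members by sample (points, log axis) and the group mean (lines) in the 3D overexpression experiment, with 2 samples of WT and of Cxcl5-/- and 3 of each overexpressing line. Myc reaches 397 to 548 CPM in MycOE Cxcl5-/-, and Mga drops to 7.12 to 12.9 CPM in Hif1αOE Cxcl5-/- alone.

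Myc in MycOE Cxcl5-/- cells was at 548, 525 and 397 CPM, 23.2-fold above Cxcl5-/- (log2 4.54, SE 0.16, adjusted p = 1.93e-08) and 10.3-fold above WT (3.36, SE 0.15, adjusted p = 1.05e-07). Max rose with it, to 29.8, 32.3 and 30.9 CPM from 20.1 and 20.8 CPM (0.60, SE 0.11, adjusted p = 0.00135), though library totals left this rise just outside the threshold (0.27, adjusted p = 0.0533). Mxd3 rose to 14.6, 13.2 and 9.96 CPM (1.53, SE 0.17, adjusted p = 2.98e-05), around the WT values of 12.5 and 12.9 CPM. Mnt fell to 13.1, 11.8 and 12.9 CPM (-1.02, SE 0.11, adjusted p = 1.85e-05).

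Mxd4 stayed high in MycOE Cxcl5-/-, at 135, 128 and 133 CPM. This was below Cxcl5-/- by 0.37 on the log2 scale (SE 0.09, adjusted p = 0.00504) and above WT by 2.34 (SE 0.10, adjusted p = 7.21e-08), relative to a median of all genes of -0.17. The fall from Cxcl5-/- was lost without the Cxcl5-/- sample at 180 CPM (-0.29, adjusted p = 0.103). Mxd1, at 8.97, 9.55 and 5.71 CPM, was called lower (-0.75, SE 0.20, adjusted p = 0.0097), and this was lost without either Cxcl5-/- sample (adjusted p = 0.0566 and 0.0507). Mxi1 was at 97.8, 104 and 97.9 CPM and was not called (0.19, SE 0.09, adjusted p = 0.1), its direction turning with library totals (-0.15). The counts were 3 members higher and 3 lower of 8, beside 39.6% of all genes, 21.6% higher and 18% lower. The 3 higher include Myc, the gene of the vector, whose rise was set by the design.

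Mutant Hif1α and MycOE shared the direction of 3 called members, Mxd3, Mxd4 and Mnt, while Mxi1 and Mga were called with mutant Hif1α. Hif1α itself was at 258, 296 and 243 CPM in Hif1αOE Cxcl5-/- and at 144 and 133 CPM in Cxcl5-/- (0.94, SE 0.10, adjusted p = 2.99e-05). It was at 241, 271 and 262 CPM in MycOE Cxcl5-/- and at 304 to 324 CPM in WT. All Hif1αOE Cxcl5-/- samples thus lay below WT, without passing the threshold (-0.24, SE 0.10, adjusted p = 0.0999). MycOE against Hif1αOE did not pass it either (-0.04, SE 0.09, adjusted p = 0.826). Myc, at 23.0, 26.8 and 25.6 CPM in Hif1αOE Cxcl5-/-, lay above both Cxcl5-/- samples but did not pass the threshold (0.25, SE 0.13, adjusted p = 0.175), and it was below WT (-0.92, SE 0.13, adjusted p = 0.000625). Mxd4 fell to 66.1, 73.6 and 78.1 CPM (-1.24, SE 0.09, adjusted p = 1.62e-06), between WT and Cxcl5-/-. Mxi1 rose to 121, 115 and 106 CPM (0.38, SE 0.09, adjusted p = 0.00467), a call lost with library totals (0.16, adjusted p = 0.236) and without the Cxcl5-/- sample at 86.0 CPM (0.37, adjusted p = 0.0512).

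Mga (chr2:119897228-119969581), the member that also carries a T-box, gave the largest change of a member other than Myc in this experiment. It was at 7.12, 11.4 and 12.9 CPM in Hif1αOE Cxcl5-/-, 9.99-fold below Cxcl5-/- (-3.32, SE 0.19, adjusted p = 5.22e-07), and at 78.7, 86.9 and 99.5 CPM in MycOE Cxcl5-/-, where it was not called (-0.25, SE 0.19, adjusted p = 0.307). In the other 10 groups of the 3 tables Mga lay between 54.95 and 114 CPM. Of the 5 genes on each side of Mga that averaged 50 counts or more, which were chosen after its fall was seen, 2 were called higher and 5 lower in Hif1αOE Cxcl5-/- than in Cxcl5-/-, beside 20.5% and 15% of all genes. Their log2 fold changes ran from -1.75 for Tyro3 to 1.37 for Jmjd7. Both of these genes moved the same way in MycOE Cxcl5-/- (-2.04 and 2.07), unlike Mga. Jmjd7 overlaps other gene models, so its reads may be split among them.

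Mxd3 rose in Hif1αOE Cxcl5-/- to 10.9, 9.87 and 9.38 CPM (1.21, SE 0.17, adjusted p = 0.000207), and Mnt fell to 16.1, 17.5 and 19.5 CPM (-0.53, SE 0.11, adjusted p = 0.00246). Mxd1 (-0.50, SE 0.20, adjusted p = 0.0664) and Max (-0.16, SE 0.11, adjusted p = 0.297) were not called. Thus 2 members were called higher and 3 lower of 8, beside 35.5% of all genes, 20.5% higher and 15% lower.

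Compared directly, MycOE Cxcl5-/- had more Myc (4.28, SE 0.13, adjusted p = 1.03e-08), Max (0.76, SE 0.10, adjusted p = 0.000301), Mxd4 (0.86, SE 0.08, adjusted p = 1.94e-05) and Mga (3.07, SE 0.18, adjusted p = 8.5e-07) and less Mnt (-0.49, SE 0.10, adjusted p = 0.00445) than Hif1αOE Cxcl5-/-, beside 19.3% of all genes called, 9.54% higher and 9.73% lower. Against WT, both overexpressing lines kept Mxd4 higher and Mxi1 lower, at -0.66 (SE 0.08, adjusted p = 0.000324) for Mxi1 in Hif1αOE Cxcl5-/- and -0.85 (SE 0.08, adjusted p = 2.79e-05) in MycOE Cxcl5-/-. Mxd4 was above WT by 1.48 (SE 0.09, adjusted p = 4.05e-06) in Hif1αOE Cxcl5-/-. In the comparisons with WT 24.2% of all genes were called for Hif1αOE Cxcl5-/- and 31.8% for MycOE Cxcl5-/-, and 4 of 8 members were called in each. For MycOE Cxcl5-/- the 4 include Myc, the gene of its vector. With library totals the share of called genes that were higher went from 57.5% to 38.1% and from 53.7% to 28.5% in these comparisons, and from 49.5% to 36.1% between the lines.

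The ratio of Myc to the summed antagonists per kilobase was 0.444 ± 0.00141 (n = 2) in WT, 0.185 ± 0.0224 (n = 2) in Cxcl5-/-, 0.267 ± 0.0206 (n = 3) in Hif1αOE Cxcl5-/- and 4.57 ± 0.614 (n = 3) in MycOE Cxcl5-/-. The antagonists themselves summed to between 34.6 and 42.2 CPM per kilobase in all 4 groups. The rise of the ratio with MycOE therefore came with a sum of 39.4 ± 1.41, close to that of WT at 39.5 ± 2.01 in the TMM scaling. TMM factors were 0.857 to 0.939 in MycOE Cxcl5-/- and 1.09 to 1.10 in WT, so this closeness rests on the scaling. Mxd4 gave 47.7% of the sum in Cxcl5-/-, 24.7% in Hif1αOE Cxcl5-/-, 39.5% in MycOE Cxcl5-/- and 7.79% in WT.

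In the conditioned media no member passed the threshold in any of 3 comparisons by edgeR's quasi-likelihood test, by the DESeq2 Wald test or in any other setting tried. Across all genes, 0.0156% were called for M1-CM against Ctrl and for M1-CM against M0-CM, and 0% for M0-CM against Ctrl, where 412 genes were higher and 157 lower at an unadjusted p under 0.05 and the DESeq2 Wald test called 17. Myc was at 12.9, 8.64 and 8.09 CPM in Ctrl, at 14.3, 9.36 and 11.5 CPM with M0-CM and at 14.8, 25.9 and 9.28 CPM with M1-CM, so that the groups overlapped. The sample at 25.9 CPM, M1-CM replicate 2, also held the highest Mnt (19.3 CPM, against 5.91 to 11.6 CPM in the other 8) and the lowest Mxd3 (7.71 CPM) and Mxd4 (74.8 CPM) of this table, and it had the lowest total count of the 9, 43875429. The member with an unadjusted p under 0.05 was Mxi1 with M0-CM (72.7 to 96.7 CPM against 33.1 to 70.5 CPM in Ctrl, 0.63, SE 0.28, adjusted p = 1).

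These WT spheroids did not have the levels of the WT spheroids in the other tables. Mxd4 was at 140, 166 and 139 CPM in Ctrl, against 23.2 to 28.5 CPM in 3D WT and 25.8 to 26.4 CPM in WT of the overexpression experiment. Their Mxi1 and Myc were lower, and Mxd4 gave 47.3% of the antagonist sum. The ratio of Myc to that sum was 0.0984 ± 0.0255 in Ctrl, beside 0.103 ± 0.0115 in the libraries labelled 3D Cxcl5-/-. An antagonist sum led by Mxd4 was thus not particular to Cxcl5-/- cells. The fibroblast marker Dcn was also higher in them, at a mean of 136 CPM against 37.7 CPM in 3D WT and 4.52 CPM in the other WT spheroids, and its part was not tested. Their medium held less serum than that of the WT spheroids in the other tables, and the part of this was not tested. The tables were scaled separately, and no test was made across them.

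Partners of the network that bind no E-box alone followed it in part. Of 7 genes of the MGA complex other than Mga, 6 were called lower in 3D than in 2D Cxcl5-/-, beside 28.2% of all genes, and 5 in 3D than in 2D WT, beside 22%. Among them Tfdp1, the DP1 subunit that pairs with E2F factors, fell by 0.93 (SE 0.09, adjusted p = 1.49e-06) in 3D WT and rose by 1.14 (SE 0.08, adjusted p = 1.38e-06) in Hif1αOE Cxcl5-/- over Cxcl5-/-. In the latter comparison, where Mga fell, 4 of the 7 were called higher and 0 lower, beside 20.5% and 15% of all genes (the median log2 fold change was 0.63 beside 0.16 for all genes).

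Of 10 MYC coactivators, the ATPase gene Ruvbl2 moved most in the comparisons of 3D Cxcl5-/- with WT and of MycOE with Cxcl5-/-. Ruvbl2 fell in the libraries labelled 3D Cxcl5-/- against 3D WT (-1.51, SE 0.10, adjusted p = 5.18e-08) and in Cxcl5-/- of the overexpression experiment (-1.74, SE 0.09, adjusted p = 1.57e-07), and it rose with MycOE (1.73, SE 0.08, adjusted p = 8.93e-08) and with mutant Hif1α (1.502, SE 0.08, adjusted p = 3.23e-07). In the libraries labelled 3D Cxcl5-/- 6 of the 10 were called lower than in 3D WT and 1 higher, beside 25.3% and 19.7% of all genes. With MycOE 5 were called higher than in Cxcl5-/- and 2 lower, beside 21.6% and 18% of all genes, the 2 being the large scaffolds Trrap (-0.83, SE 0.11, adjusted p = 9.44e-05) and Ep400 (-0.72, SE 0.11, adjusted p = 0.000309).

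Of 11 genes for turnover of the MYC protein, Aurka and Cip2a, whose products protect MYC proteins from degradation, fell by 1.42 (SE 0.10, adjusted p = 1.21e-07) and 1.14 (SE 0.09, adjusted p = 3.95e-07) in the libraries labelled 3D Cxcl5-/- against 3D WT. Gsk3b, a kinase that marks MYC for destruction, rose there (0.89, SE 0.17, adjusted p = 0.000852). Across the list 2 were called higher and 5 lower there, beside 19.7% and 25.3% of all genes, with a median log2 fold change of -0.15. With MycOE Aurka rose over Cxcl5-/- (2.08, SE 0.14, adjusted p = 7.39e-07) and Gsk3b fell (-1.17, SE 0.12, adjusted p = 1.82e-05), and with mutant Hif1α they moved by 1.97 (SE 0.14, adjusted p = 1.5e-06) and -1.20 (SE 0.12, adjusted p = 2.15e-05). Skp2, a ubiquitin ligase subunit, rose more with MycOE than with mutant Hif1α (0.83, SE 0.09, adjusted p = 7.01e-05). Aurka and Skp2 are also genes of dividing cells. Of the whole list 5 were called higher and 3 lower with MycOE than in Cxcl5-/-, beside 21.6% and 18% of all genes (median 0.00). With mutant Hif1α 5 were called higher and 4 lower, beside 20.5% and 15% (median 0.19).

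Corepressors were called in both comparisons of 3D culture with WT. Of Sin3a, Sin3b, Hdac1, Hdac2 and Ncor1, 3 were called lower in 3D than in 2D WT (22% of all genes), the largest being Hdac2 (-0.98, SE 0.07, adjusted p = 1.28e-07), and 3 were called lower than in 3D WT in those labelled 3D Cxcl5-/- (25.3% of all genes), with a median log2 fold change of -0.27. Mlx, the MAX-like partner that also binds MXD1, MXD4 and MNT, fell in the same comparison (-0.60, SE 0.11, adjusted p = 0.000596), while its glucose-sensing partner Mlxip rose (0.92, SE 0.16, adjusted p = 0.000482). The long noncoding RNA Pvt1, the neighbour of Myc, fell with MycOE to 15.9, 19.2 and 16.9 CPM from 35.9 and 34.8 CPM (-1.03, SE 0.10, adjusted p = 1.3e-05).

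Genes that MYC is known to induce fell from 2D to 3D both in WT cells, where Myc rose, and in Cxcl5-/- cells, where it fell. Within 3D they moved with Myc when it was low in Cxcl5-/- or raised by the vector. Between Hif1αOE Cxcl5-/- and WT they moved against it. The list held 56 genes of ribosome assembly, nucleotide synthesis, chaperones and replication. In 3D WT against 2D WT 50 of the 56 were called lower and 1 higher, beside 22% and 22.2% of all genes. The median log2 fold change was -0.91 beside 0.00 for all genes, although Myc rose. The 3 lowest were Mcm5 of the replicative helicase (-1.40, SE 0.10, adjusted p = 1.13e-07), the nucleolar Gnl3 (-1.39, SE 0.12, adjusted p = 5.43e-07) and Grwd1 (-1.38, SE 0.12, adjusted p = 8.71e-07). The gene called higher was the nucleoside transporter Slc29a2 (0.55, SE 0.18, adjusted p = 0.0259). In 3D against 2D Cxcl5-/- 50 were called lower and 0 higher, beside 28.2% and 28.7% of all genes (median -1.22 beside 0.11).

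In the libraries labelled 3D Cxcl5-/- 33 of the 56 were called lower than in 3D WT and 2 higher, beside 25.3% and 19.7% of all genes. The median was -0.42 beside -0.04 for all genes. Tmem97, a sterol-linked membrane protein (-1.53, SE 0.11, adjusted p = 1.65e-07), and Plk4, the kinase of centriole duplication (-1.53, SE 0.09, adjusted p = 4.04e-08), fell most, and sorbitol dehydrogenase Sord rose (0.66, SE 0.12, adjusted p = 0.000458). In 2D, 2 of the 56 were called lower in Cxcl5-/- and 0 higher, beside 3.17% and 3.86% of all genes. In the overexpression experiment 42 were called lower in Cxcl5-/- than in WT and 3 higher, beside 24.3% and 17.6% of all genes. The median was -0.67 beside -0.30 for all genes.

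With MycOE 50 of the 56 were called higher than in Cxcl5-/- and 0 lower, beside 21.6% and 18% of all genes. The median was 1.08 beside 0.11 for all genes. The nucleotide pyrophosphatase Dctpp1 (2.50, SE 0.18, adjusted p = 1.37e-06), Tmem97 (2.49, SE 0.13, adjusted p = 2.23e-07) and Mcm5 (2.12, SE 0.09, adjusted p = 5e-08) rose most. With mutant Hif1α 47 were called higher and 0 lower, beside 20.5% and 15% of all genes. The median was 0.92 beside 0.16, while Myc did not pass the threshold. Against WT, 23 were called higher and 1 lower in Hif1αOE Cxcl5-/-, beside 13.9% and 10.3% of all genes. The median there was 0.23 beside -0.10, although Myc was called lower (-0.92). In MycOE Cxcl5-/- 32 were called higher than in WT and 0 lower, beside 17.1% and 14.7%. Between the lines 15 were called higher in MycOE Cxcl5-/- than in Hif1αOE Cxcl5-/- and 1 lower, beside 9.54% and 9.73% of all genes. Sord led the rises (1.22, SE 0.10, adjusted p = 9.63e-06). Myc differed by 4.28 between the same lines, and the median of the list by 0.22.

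**Figure D4:**
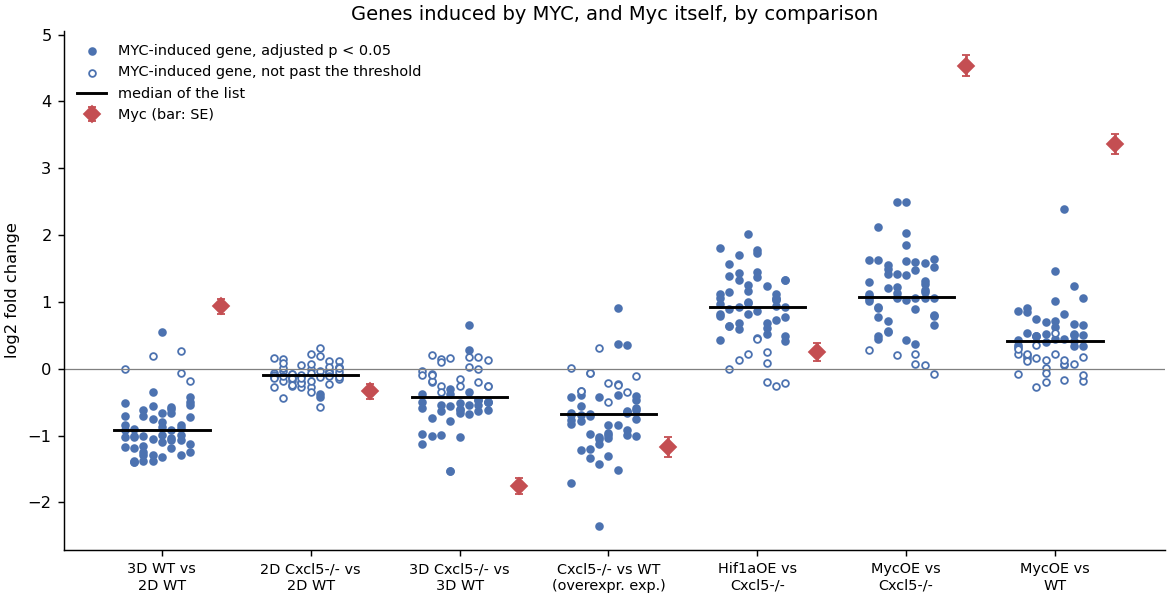
Log2 fold changes of 56 genes that MYC is known to induce (circles, filled where the adjusted p was under 0.05), their median (line) and the log2 fold change of Myc (diamond, with its SE) in 7 comparisons. In 3D WT against 2D WT the median lies at -0.91 while Myc lies at 0.93, and the list rises nearly as far with mutant Hif1α as with MycOE, at medians of 0.92 and 1.08.

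Of 9 genes that MYC is known to repress, 8 were tested, and all 8 were called higher in 3D than in 2D WT, beside 22.2% of all genes. Ndrg1, which also responds to lack of oxygen, rose by 4.59 (SE 0.09, adjusted p = 4.36e-12), and the cell cycle inhibitor Cdkn1a by 2.72 (SE 0.37, adjusted p = 3.79e-05). In the libraries labelled 3D Cxcl5-/-, where Myc was low, 5 were called lower than in 3D WT and 2 higher, beside 25.3% and 19.7% of all genes. Cdkn1a was at 1.06, 4.99 and 5.73 CPM there against 66.4 to 69.7 CPM in 3D WT (-4.11, SE 0.40, adjusted p = 2.24e-06), and Gas1, a growth arrest gene, was at 118 to 130 CPM against 16.3 to 19.5 CPM (2.78, SE 0.09, adjusted p = 3.07e-10). Gas1 stayed at 89.9 to 113 CPM in MycOE Cxcl5-/- and was at 18.4 to 22.1 CPM in Hif1αOE Cxcl5-/-.

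Among the 14442 genes that averaged 50 counts or more in the 12 samples of 2D and 3D culture, those whose log2 CPM followed Myc closely by Pearson's r included Afg3l2 (0.987), Dazap2 (0.986), Gyg (0.982) and Csf1 (0.978). The values describe 4 groups of 3 samples, which share libraries with Myc, and carry no test. For these genes the likeness carried over to the overexpression experiment in part only. Against Cxcl5-/-, Myc differed by 4.54 with MycOE. There Afg3l2 differed by -0.32 (adjusted p = 0.0109), Csf1 by -0.19 (adjusted p = 0.0589), Dazap2 by 0.07 (adjusted p = 0.656) and Gyg by 0.42 (adjusted p = 0.0245). Between Cxcl5-/- and WT, Dazap2 (-0.04, adjusted p = 0.799) and Gyg (0.08, adjusted p = 0.685) did not pass the threshold. Csf1, a growth factor of macrophages, was at means of 144 CPM in 2D WT, 130 CPM in 2D Cxcl5-/-, 242 CPM in 3D WT and, under the label 3D Cxcl5-/-, 97.5 CPM. Of the other members, Mxd1 came nearest to Myc, at 0.628, and Mxd4 was lowest, at -0.575.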

How the data were processed

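From TruSeq Stranded libraries of total RNA the authors sequenced pairs of reads of 101 bases on a NovaSeq, aligned them to GRCm38 with HISAT2 and deposited raw counts per gene from StringTie, in 3 tables and without normalization. The release of their annotation is not given in the sources used here. They tested with DESeq2. All columns of values were used.

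Counts were analysed in R 4.3.3 with edgeR 4.0.16 (TMM, filterByExpr by group, the quasi-likelihood test, 1 model per table over all its groups, no covariate, Benjamini-Hochberg adjustment over 19207, 21367 and 28730 genes tested). Each SE was taken as the absolute log2 fold change over the root of F. Levels per length used exon lengths and positions of GENCODE vM21. For likeness to Myc, 2 was the prior count of log2 CPM. The replicate SD and the SE give the precision at these depths. The test was also run on simulated data with known changes.

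The members and gene lists were chosen with earlier results of these data known. The genes named were all members, genes of short lists, Cxcl5 and Hif1α, the 3 largest and 3 smallest changes of the MYC-induced list averaging 50 counts or more, and the 5 genes most like Myc, of which 1 is not reported here, and the text uses part of them. As alternatives served size factors and the Wald test of DESeq2 1.42.0, library totals, other filters, only the groups compared, the replicate number as a block, summed rows of a symbol, an absolute log2 fold change above 1 and each sample left out.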

Additional observations from a re-analysis of the deposited data

Results flagged for a closer look

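For 5 members the effect of the Cxcl5-/- label differed between 2D and 3D culture by the interaction term of edgeR's quasi-likelihood test. The difference (3D less 2D, log2) was -1.41 for Myc, -1.58 for Mxd1, -0.60 for Mxd3, 1.66 for Mxd4 and -1.40 for Mxi1. The Cxcl5 transcript itself had an interaction of 1.37 (adjusted p = 0.000267), since it exceeded 3D WT under the label 3D Cxcl5-/-. Groups of 3 or fewer samples were not searched for samples that stand apart.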

How the results depend on the processing

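Of 117 member fold changes tested, 56 were called. All counts of calls here include Myc in the comparisons of MycOE, where it is the gene of the vector. Leaving out the 5 of Mycl, 1 of them called, whose counts lie near 0, 112 were followed through the settings and 55 were called. Of these, 46 were called in every setting without a fold limit and 9 lost in at least 1, and 0 called values turned direction. Of the 57 not called, 17 passed in at least 1 setting. An absolute log2 fold change above 1 leaves 32 of the 55. With an absolute log2 fold change above 1 also required, 3 members were called for 3D WT against 2D WT, 4 for 3D against 2D Cxcl5-/-, 3 for Hif1αOE and 3 for MycOE against Cxcl5-/-, and 2 each for MycOE against Hif1αOE and for Hif1αOE and MycOE against WT. For 2D Cxcl5-/- against 2D WT the DESeq2 Wald test called 3, at least 10 counts in every sample 2 and only the groups compared 2, against 1. The rise of Max in MycOE over WT was lost with library totals (0.21, adjusted p = 0.136) and without WT replicate 2 (0.46, adjusted p = 0.0735). The causes were not tested.

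Values not called turned direction near 0. For Max in M1-CM against Ctrl they reached 0.00688 (DESeq2 Wald test), 0.00717 (DESeq2 size factors), 0.039 (library totals) and 0.016 (at least 10 counts). For Mga in M1-CM against M0-CM they reached 0.019 with DESeq2 and its size factors, 0.091 (library totals), 0.016 (at least 10 counts) and 0.023 (only the groups compared). For Mga in 3D against 2D Cxcl5-/- they reached 0.020 with DESeq2 and its size factors, 0.10 (library totals), 0.032 (no filter) and 0.076 (at least 10 counts). Library totals also gave 0.013 for Mga in M1-CM against Ctrl, 0.051 for Mxd1 and 0.052 for Mxd4 in M1-CM against M0-CM, 0.093 for Max in 3D Cxcl5-/- against 3D WT, -0.15 for Mxi1 in MycOE against Cxcl5-/- and -0.0045 for Mga in MycOE against WT, and no filter gave 0.017 for Mxd3 in the last comparison.

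With each sample left out in turn, M1-CM against Ctrl ranged from -0.18 to 0.15 for Max, -0.54 to 0.52 for Mnt and -0.19 to 0.13 for Mga. M0-CM against Ctrl ranged from -0.42 to 0.11 for Mxd3 and -0.20 to 0.14 for Mga. M1-CM against M0-CM ranged from -0.42 to 0.31 for Mxd1, -0.52 to 0.037 for Mxd3, -0.39 to 0.18 for Mxd4, -0.21 to 0.85 for Mnt and -0.16 to 0.17 for Mga. The interaction of Max ranged from -0.11 to 0.28, and Mxd3 in MycOE against WT from -0.14 to 0.13.

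The replicate numbers did not pair the samples, since deviations of same-numbered samples correlated at means of 0.0369, 0.0247 and 0.00408 in the tables of conditioned media, culture and overexpression, with lowest values of -0.236, -0.0958 and -0.0245. With the replicate number as a block, 6 members in place of 5 were called for Cxcl5-/- against WT in the overexpression experiment and 7 in place of 6 for MycOE against Cxcl5-/-, and the count was the same in the other 12 comparisons. The block gave 0.010 for Max in M1-CM against Ctrl, 0.11 for Mxd1 and 0.011 for Mga in M1-CM against M0-CM and 0.076 for Mxd3 in MycOE against WT.

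Across all genes, an absolute log2 fold change above 1 left 3877 of 9459 calls for 3D WT against 2D WT, 666 of 1502 for 2D Cxcl5-/- against 2D WT, 3771 of 9615 for 3D Cxcl5-/- against 3D WT, 6082 of 12171 for 3D against 2D Cxcl5-/- and 2438 of 5807 for the interaction. In the overexpression experiment it left 7327 of 12048 for Cxcl5-/- against WT, 5185 of 10212 for Hif1αOE and 6366 of 11372 for MycOE against Cxcl5-/-, 1978 of 5538 between the lines, and 2769 of 6962 for Hif1αOE and 4439 of 9128 for MycOE against WT. Without 1 WT or Cxcl5-/- replicate 7487 to 7908 genes were called for Cxcl5-/- against WT, and without 1 WT replicate 3177 to 3196 for Hif1αOE and 4926 to 4954 for MycOE against WT. The DESeq2 Wald test called 97, 17 and 32 genes for M1-CM against Ctrl, M0-CM against Ctrl and M1-CM against M0-CM, in place of 3, 0 and 3, and the other settings called 0 to 6. Folds of Mycn and Mycl are limited by counts near 0.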
